A study of Arabidopsis thaliana with 48 samples.

Results

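The low sulfate response of Col-0 Arabidopsis thaliana was compared between roots and shoots, that is, the change of each transcript from sulfate-replete to low sulfate plates in roots, minus the same change in shoots. The 12 Col-0 libraries of a 48-library RNA-seq series entered, 3 each of root -S, root +S, shoot -S and shoot +S, described by the labels as 3 biological replicates. The other libraries, labelled eil1, eil3 and eil3 eil1, were used in a later comparison and an alternative fit. All plants were 18 days old and grew on modified Long Ashton agarose plates in long days. The -S plates held 0.015 mM MgSO4 and 0.75 mM MgCl2, and the +S plates held 0.75 mM MgSO4 and 0 mM MgCl2, so low sulfate and added chloride cannot be told apart. The aerial libraries carry the source label Shoot, while the growth protocol speaks of leaf samples. Of 33602 targets in the deposited table, 22301 passed the filter on low counts and were tested. Loci with opposite directions were those called in roots, in shoots and in the organ difference, with opposite signs in the organs, and there were 67. Loci that responded in 1 organ were those called in that organ and in the organ difference but not in the other organ. They also had a mean of at least 1 CPM in the -S or the +S group of each organ. They numbered 134 for roots only and 2339 for shoots only. A call is a Benjamini-Hochberg adjusted p under 0.05, taken over all 22301 loci, in the quasi-likelihood test of edgeR.

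Plants take up sulfate at the root surface through high-affinity transporters, load it into the xylem and reduce most of it in leaf plastids to sulfide, from which cysteine is made. Low sulfate raises transporters and reduction enzymes and lowers the synthesis of glucosinolates, sulfur-rich defence compounds of the Brassicaceae that are made from methionine (aliphatic) or tryptophan (indolic). The transcription factor SLIM1, also called EIL3, is known to control much of this response in Arabidopsis.

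Upstream windows of 250 bases, from the RefSeq annotation of TAIR10.1, are shown for the loci on which the organ difference turned. SULTR2;1 had the most positive organ difference of all opposite loci, ASA1 and IGMT1 were opposite in the other direction, and CYP79B2 had the most negative organ difference of the loci that fell in roots only. Each is written 5′ to 3′ on the strand of its gene and ends at the base before the annotated gene start. Capitals mark matches, on either strand, to GAGAC (core of the sulfur-responsive element), ATGTANCT (EIN3/TEIL type), CACGTG (G-box), CACGTC or GATAAG (I-box core).
SULTR2;1, chr5:3192767-3193016, plus strand: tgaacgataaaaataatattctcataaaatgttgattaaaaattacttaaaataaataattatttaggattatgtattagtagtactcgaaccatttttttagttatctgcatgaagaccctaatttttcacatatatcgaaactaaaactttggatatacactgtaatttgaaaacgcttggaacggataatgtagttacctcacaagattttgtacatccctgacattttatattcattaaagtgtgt
ASA1, chr5:1722934-1723183, minus strand: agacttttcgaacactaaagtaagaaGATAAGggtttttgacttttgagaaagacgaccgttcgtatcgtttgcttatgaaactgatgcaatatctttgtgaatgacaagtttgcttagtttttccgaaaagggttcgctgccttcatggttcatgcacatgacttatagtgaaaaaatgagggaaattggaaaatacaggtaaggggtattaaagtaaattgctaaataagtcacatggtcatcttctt
IGMT1, chr1:7388513-7388762, minus strand: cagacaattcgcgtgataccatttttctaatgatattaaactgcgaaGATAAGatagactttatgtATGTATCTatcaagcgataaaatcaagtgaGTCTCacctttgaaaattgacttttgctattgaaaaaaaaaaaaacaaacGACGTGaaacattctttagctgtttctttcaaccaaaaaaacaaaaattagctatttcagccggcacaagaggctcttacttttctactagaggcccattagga
CYP79B2, chr4:18524792-18525041, plus strand: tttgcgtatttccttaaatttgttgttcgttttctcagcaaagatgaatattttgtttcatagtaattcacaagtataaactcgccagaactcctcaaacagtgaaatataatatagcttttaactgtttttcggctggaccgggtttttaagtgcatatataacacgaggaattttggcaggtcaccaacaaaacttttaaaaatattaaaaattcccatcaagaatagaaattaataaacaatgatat
The IGMT1 window held 4 of the 5 motifs, ASA1 held 1, and these letters were not in the windows of SULTR2;1 and CYP79B2. CACGTG and CACGTC share their first 5 letters but cannot both match at 1 position. Over the classes, GATAAG was in 25.6% of the 43 windows of loci that fell in roots and rose in shoots, in 4.55% of the 22 windows of the reverse class, and in 12.3% of all 22074 windows of tested loci. GAGAC was in 16.3%, 22.7% and 25.5% of the same windows. These shares are a description and were not tested.

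Total estimated counts per Col-0 library ran from 29049312 to 38269946 in roots and from 27128201 to 36766627 in shoots. The organs separated by their markers. The summed level of 17 photosynthesis genes was 916.4 to 1237 CPM in root -S and 1070 to 1354 CPM in root +S libraries, against 74066 to 89544 CPM in shoot -S and 126578 to 153685 CPM in shoot +S libraries. The summed level of 8 root markers was 5445 to 6788 CPM in root -S and 7558 to 7859 CPM in root +S libraries, and 429.9 to 548.5 CPM in all shoot libraries. Each sum was lower under -S in the organ it marks, with no overlap of the libraries, and the part of this in the results was not tested. A sum is weighted to its most abundant members and need not speak for the others. Of the 8 root markers 1 was called down in roots, and the median log2 change of the 8 in roots was 0.04. In bulk samples fewer cells of a type and less RNA per cell cannot be told apart. TMM scaling factors were 1.1529 to 1.212 in roots, 0.86858 to 0.88886 in shoot -S and 0.78753 to 0.83062 in shoot +S libraries.

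Many more loci were called in shoots than in roots, and most of the root calls were shoot calls too. The response to low sulfate was called for 1020 loci in roots (4.57% of those tested), of which 385 rose (1.73%) and 635 fell (2.85%), and for 7576 loci in shoots (34%; 3785 rose and 3791 fell, 17% each). Of these, 672 were called in both organs, which is 65.9% of the root calls and 8.87% of the shoot calls. In 605 the direction was the same and in 67 it was opposite. The organ difference itself was called for 2928 loci (13.1%), positive for 1332 (5.97%) and negative for 1596 (7.16%). A positive difference means a change that was more upward in roots than in shoots. The threshold fell between AT1G78150, with an organ difference of 0.28 ± 0.09 (log2, SE; adjusted p = 0.0499589, edgeR), and AT4G15955, with -0.50 ± 0.16 (adjusted p = 0.0501264, edgeR). Without 1 library the count of root calls ranged from 622 (without root +S replicate 3) to 1304, and that of the difference from 2064 to 3674. The split of the shoot calls depended on the scaling: with library totals in place of TMM, 5832 rose and 2413 fell in shoots, and the organ difference was positive for 895 and negative for 2591 loci, as the median difference of all loci moved to -0.12, against -0.01 with TMM.

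Of the 2928 loci, 22 rose in roots and fell in shoots (0.0987% of those tested), 45 fell in roots and rose in shoots (0.202%), 37 rose (0.166%) and 97 fell (0.435%) in roots only, and 1226 rose (5.50%) and 1113 fell (4.99%) in shoots only. In 124 the direction was the same and the change larger in shoots, and in 28 the same and larger in roots. Neither organ was called by itself in 124. A further 20 loci called in roots (0.0897%) and 92 called in shoots (0.413%) were under the 1 CPM minimum in at least 1 organ. That organ could be the called one. The 20 had median levels of 0.399 CPM in root -S and 0.53 CPM in root +S, against 3.37 and 2.99 CPM in shoots. These counts define the classes and are not evidence for them. With total-count scaling 2111 rose and 709 fell in shoots only, and with RLE size factors 988 rose and 1375 fell.

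**Figure D1:**
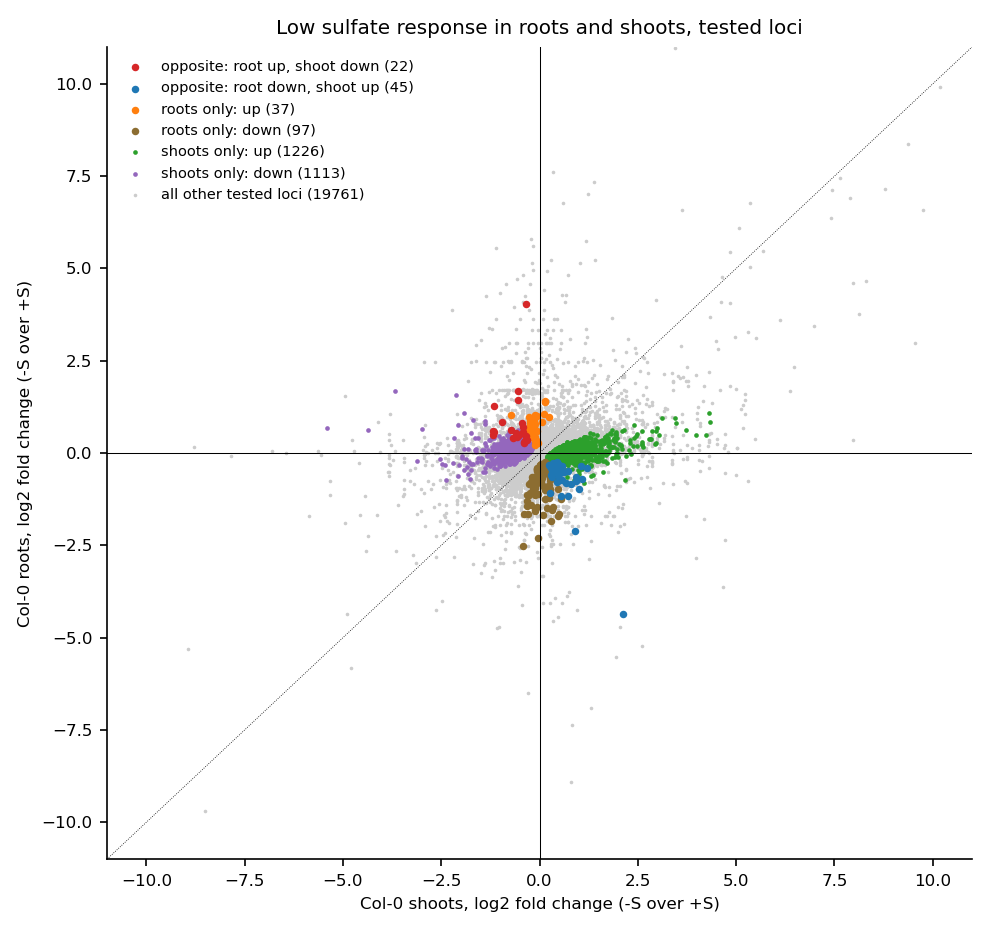
Log2 fold change (-S over +S) in Col-0 shoots (x axis) against Col-0 roots (y axis), 1 point per tested locus, coloured by class; the dotted line marks equal change. The 22 and 45 opposite loci lie in the upper left and lower right quadrants, the 2339 shoots-only loci along the x axis and the 134 roots-only loci along the y axis.

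Most loci with opposite directions changed by less than 2-fold in each organ. The 22 that rose in roots and fell in shoots had a median log2 change of 0.56 in roots and -0.53 in shoots, and the 45 of the reverse class had -0.51 in roots and 0.48 in shoots. Only AT3G46370 and AT1G73120 changed by at least 1 on the log2 scale in both organs. The class was sensitive to the fit. It held 116 loci when the replicate number was a block within each organ and 119 by DESeq2. Without 1 library it held 38 (without root +S replicate 2) to 106 (without shoot +S replicate 1), with 40 without root +S replicate 3 and 40 without root -S replicate 2. All 67 kept both signs with RLE and with total-count scaling. These scalings left the median change of all loci within 0.123 of 0 in each organ. The smallest changes among the 67 were -0.23 in roots and 0.25 in shoots, so the kept signs add little. Of the 67, 27 were in the class by limma and 32 without root -S replicate 3, and 15 were in it in each of 20 settings.

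SULTR2;1 (AT5G10180), a low-affinity sulfate transporter of the vasculature, had the most positive organ difference of the opposite loci. It had 327, 363 and 362 CPM in root -S and 23.1, 19.0 and 21.5 CPM in root +S libraries. In shoots it had 102, 91.6 and 109 CPM under -S and 106, 147 and 135 CPM under +S. The root groups lay far apart, while 1 shoot -S library lay above the lowest shoot +S library. Its log2 change was 4.05 ± 0.13 in roots (SE, n = 3 libraries a group; adjusted p = 1.04e-09 by edgeR) and -0.36 ± 0.11 in shoots (adjusted p = 0.0264). The organ difference was 4.41 ± 0.17 (adjusted p = 1.23e-08). The shoot call was lost when shoots were fitted alone, so that SULTR2;1 then counted as a roots-only locus.

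Some of the other root-up, shoot-down loci are known from growth and cell walls. XTR6 (AT4G25810), a xyloglucan endotransglucosylase/hydrolase, had 15.5, 17.1 and 19.7 CPM in root -S and 11.4, 10.7 and 12.4 CPM in root +S, against 5.90, 5.07 and 5.33 CPM in shoot -S and 15, 11.1 and 11.2 CPM in shoot +S libraries. Its organ difference was 1.79 ± 0.19 on the log2 scale (SE; adjusted p = 0.000138, edgeR). Separate -S and +S libraries in both organs were a condition of the rule that named XTR6, and are not further evidence. EXLA1 (AT3G45970), an expansin-like protein, had 16.2, 18.3 and 18.1 CPM in root -S and 12.5, 11.9 and 13.4 CPM in root +S, against 20.3, 24.3 and 18.9 CPM in shoot -S and 46.4, 51.1 and 46.6 CPM in shoot +S libraries. It fell by 1.18 on the log2 scale in shoots and rose by 0.48 in roots. FLA18 (AT3G11700), a fasciclin-like arabinogalactan protein, had 58.7, 58.2 and 61.5 CPM in root -S and 46.9, 40.6 and 46.7 CPM in root +S, against 145, 136 and 111 CPM in shoot -S and 199, 216 and 208 CPM in shoot +S libraries. Its organ difference was 1.08 ± 0.13 (adjusted p = 0.000293, edgeR).

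DREB26 (AT1G21910), an AP2/ERF transcription factor, had 9.15, 11.2 and 11.6 CPM in root -S and 6.53, 7.34 and 7.67 CPM in root +S, against 9.03, 11.5 and 9.96 CPM in shoot -S and 23.0, 21.1 and 24.1 CPM in shoot +S libraries. It was more abundant in shoots than in roots under +S and at about the same level in both under -S. CaS (AT5G23060), a thylakoid calcium-sensing receptor, had 11.7, 12.6 and 10.7 CPM in root -S and 7.39, 8.36 and 7.03 CPM in root +S, against 152, 173 and 149 CPM in shoot -S and 224, 272 and 285 CPM in shoot +S libraries. Other thylakoid proteins of the class were NDF5 and NdhL of the chloroplast NDH complex, with organ differences of 2.22 and 1.26 at root levels of at most 1.25 CPM. The remaining named members were AMP1 (AT3G54720), a carboxypeptidase whose loss alters meristem size (organ difference 1.02 ± 0.16), AT4G35320, an uncharacterized protein (1.02 ± 0.19), and the GDSL-type lipase AT3G16370 (0.82 ± 0.16; adjusted p = 0.0507 by edgeR with all 48 libraries in the fit).

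The reverse class, down in roots and up in shoots, held enzymes of tryptophan and indolic glucosinolate synthesis. ASA1 (AT5G05730), the alpha subunit of anthranilate synthase at the entry of tryptophan synthesis, had 23.8, 24.1 and 23.5 CPM in root -S and 38.3, 38.3 and 39.9 CPM in root +S, against 233, 180 and 242 CPM in shoot -S and 112, 82.7 and 114 CPM in shoot +S libraries. All -S libraries were below all +S libraries in roots and above them in shoots. The log2 change was -0.71 ± 0.12 in roots and 1.09 ± 0.12 in shoots, and the organ difference -1.80 ± 0.17 (adjusted p = 0.0001, edgeR). TSB1 (AT5G54810), a beta subunit of tryptophan synthase, had 106, 82.6 and 92 CPM in root -S and 154, 154 and 153 CPM in root +S, against 406, 345 and 441 CPM in shoot -S and 311, 262 and 280 CPM in shoot +S libraries. The groups of TSB1 did not overlap in either organ. Its reads may be split with the near-identical TSB2.

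IGMT1 (AT1G21100), an indole glucosinolate O-methyltransferase, had 64.6, 61.0 and 50.1 CPM in root -S and 109, 101 and 86 CPM in root +S, against 54.6, 66 and 75.1 CPM in shoot -S and 40.7, 29.9 and 32.3 CPM in shoot +S libraries. Roots held more of it than shoots on +S plates and slightly less on average on -S plates. Its organ difference was -1.67 ± 0.21 (adjusted p = 0.00048, edgeR), with the caution that reads may be shared with IGMT2. FMO GS-OX2 (AT1G62540), a flavin monooxygenase that oxidizes the side chain of methionine-derived glucosinolates, had 3.72, 4.01 and 4.01 CPM in root -S and 9.14, 9.26 and 7.76 CPM in root +S, against 4.82, 4.57 and 6.18 CPM in shoot -S and 3.18, 2.88 and 3.40 CPM in shoot +S libraries. GSTF9 (AT2G30860), a glutathione S-transferase of the indolic branch, had 484, 417 and 425 CPM in root -S and 920, 915 and 965 CPM in root +S, against 897, 897 and 948 CPM in shoot -S and 839, 673 and 761 CPM in shoot +S libraries. Most of its difference lay in roots (-1.08 ± 0.10, log2), the shoot change being 0.27 ± 0.09 (adjusted p = 0.04, edgeR), and the shoot call was lost when shoots were fitted alone.

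SUR1 (AT2G20610), the C-S lyase that both glucosinolate branches use, had 89.4, 86.3 and 79.1 CPM in root -S and 115, 117 and 110 CPM in root +S, against 197, 168 and 203 CPM in shoot -S and 126, 124 and 136 CPM in shoot +S libraries. UGT74B1 (AT1G24100), the glucosyltransferase of the next step, had an organ difference of -1.12 ± 0.14 and SUR1 one of -0.98 ± 0.11 (log2, SE). In both genes the groups did not overlap in either organ.

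The class also held transporters. KT1 (AT2G26650), the inward potassium channel AKT1 that takes up potassium in root cells, had 107, 109 and 99.7 CPM in root -S and 131, 144 and 128 CPM in root +S, against 55.0, 59.4 and 58.7 CPM in shoot -S and 29.1, 26 and 28.2 CPM in shoot +S libraries. Its organ difference of -1.41 ± 0.10 lay mostly in shoots (1.06 ± 0.07). SUC2 (AT1G22710), the sucrose/proton symporter of phloem companion cells, had 29.9, 25.5 and 24.2 CPM in root -S and 41.8, 40.4 and 36.9 CPM in root +S, against 108, 111 and 116 CPM in shoot -S and 89.2, 92.1 and 91.6 CPM in shoot +S libraries. TDT (AT5G47560), the tonoplast dicarboxylate transporter, had organ difference -1.22 and CIPK7 (AT3G23000), a calcineurin B-like interacting kinase, -1.06. SUC2, TDT, CIPK7, TSB1, NDF5, NdhL, AT3G46370 and AT1G73120 fall outside the naming rule and were chosen after their values were seen. The named members AT4G21910 (a MATE efflux family protein, -1.64 ± 0.11), AT1G49470 (a DUF716 protein, -1.62 ± 0.15) and AT3G23570 (an alpha/beta hydrolase, -1.57 ± 0.18) complete the 8 with the most negative differences by that rule, and LBD38 (AT3G49940), a repressor of nitrogen-responsive genes, had -0.61 ± 0.11. In 2 pairs of opposite loci, AT1G70780 with AT1G70782 and AT3G22968 with AT3G22970, the loci hold the same counts and are 1 signal each.

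**Figure D2:**
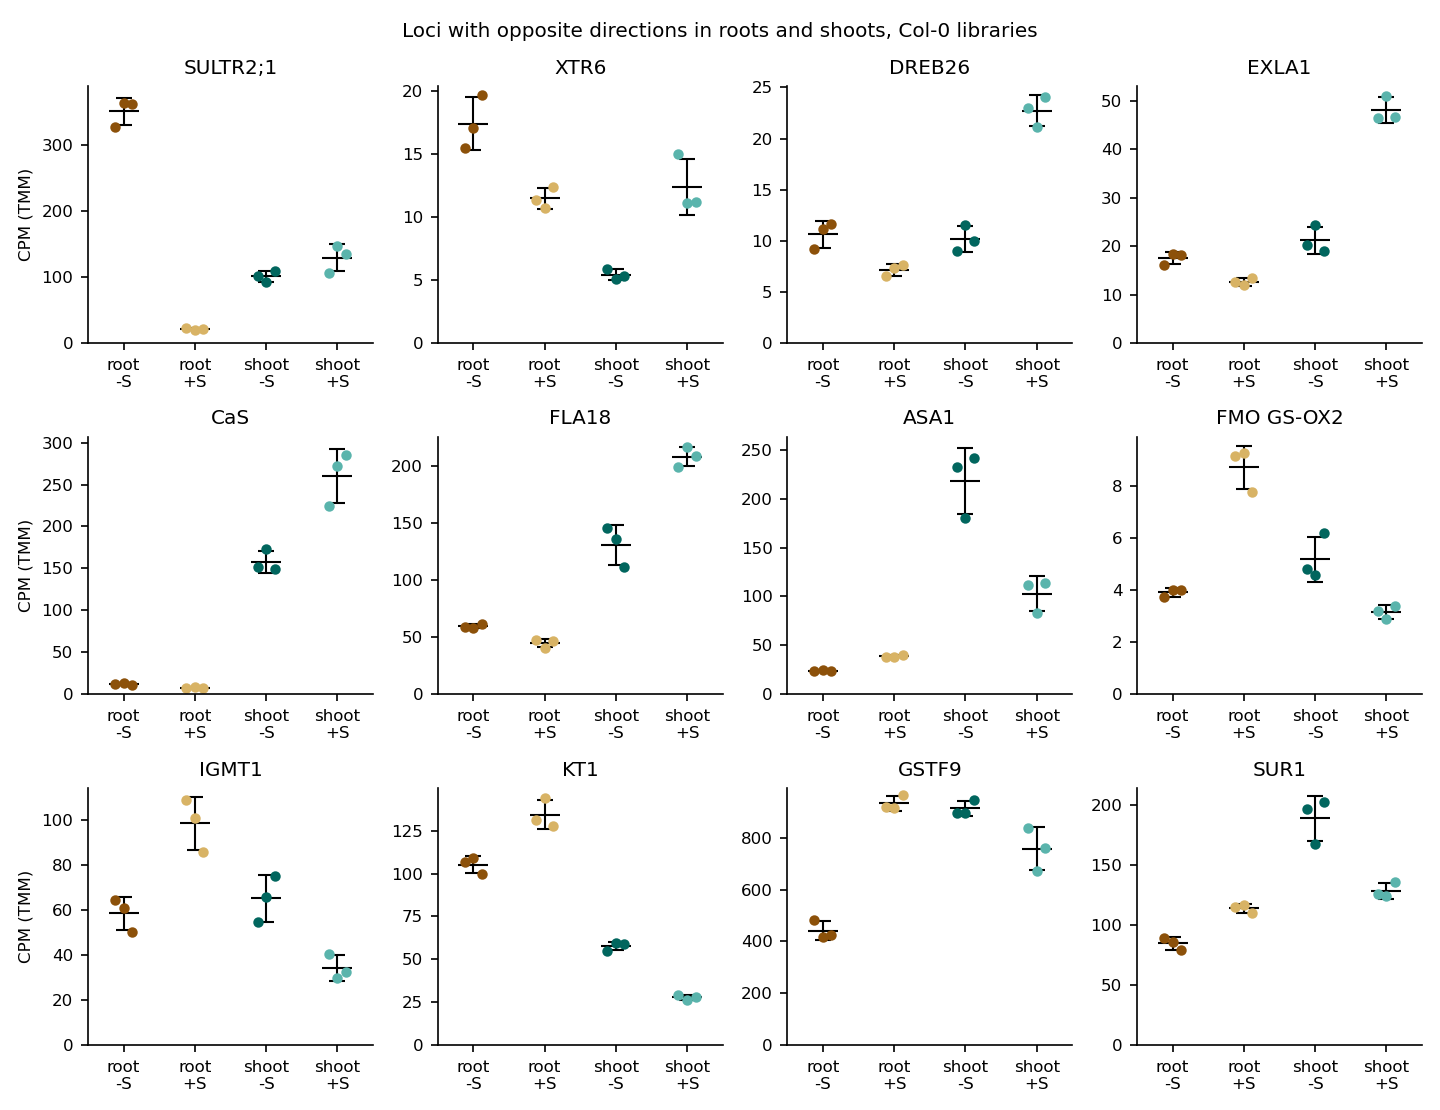
TMM-scaled CPM (y axes, from 0) of 12 loci with opposite directions in root -S, root +S, shoot -S and shoot +S libraries of Col-0; points are libraries, bars the mean and SD (n = 3). The first 6 panels are higher in root -S than in root +S and lower in shoot -S than in shoot +S libraries, and the other 6 the reverse; SULTR2;1 is the only panel in which the shoot groups overlap.

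For part of the opposite loci the organ with the higher mean changed with the plate. In 15 of the 45 that fell in roots, shoots held more on -S plates and roots held more on +S plates, among them IGMT1, FMO GS-OX2, GSTF9 and UGT74B1. In 9 of the 22 that rose in roots, roots held more on -S plates and shoots held more on +S plates, among them SULTR2;1, XTR6 and DREB26. These levels are CPM on 1 scale over both organs and were not tested between organs. The -S and +S libraries did not overlap in roots for any of the 67, and overlapped in shoots for 5, including SULTR2;1.

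Among loci called in roots only, 37 rose and 97 fell. SERAT3;1 (AT2G17640), a cytosolic serine acetyltransferase that makes the precursor of cysteine, had 51.0, 51.7 and 54.8 CPM in root -S and 21.5, 22.1 and 16.9 CPM in root +S, against 17.2, 17.3 and 18.7 CPM in shoot -S and 16.7, 17.3 and 13.8 CPM in shoot +S libraries. It rose by 1.38 ± 0.10 on the log2 scale in roots, with 0.15 ± 0.11 in shoots, where the groups overlapped (organ difference 1.23 ± 0.15, adjusted p = 0.0003, edgeR). ARAB-1 (AT1G28670), a GDSL-type lipase, had 15.4, 15.6 and 15.3 CPM in root -S and 9.36, 9.23 and 8.25 CPM in root +S, against 47.5, 51.1 and 45.4 CPM in shoot -S and 51.6, 65.7 and 52.1 CPM in shoot +S libraries. ABCB15 (AT3G28345), an ABC transporter, sks9 (AT4G38420), a SKU5-similar cupredoxin protein, the uncharacterized AT3G14560 and AT1G59124, of a disease resistance family, had organ differences of 1.24, 1.04, 0.99 and 0.96. The call of ABCB15 was lost when any 1 of 9 libraries was left out, that of sks9 without root +S replicate 2 or 3 and with the replicate block (adjusted p = 0.0573, edgeR), and that of AT1G59124 without root +S replicate 2 or root -S replicate 2 and with all 48 libraries in the fit (adjusted p = 0.411, edgeR). The root response of ABCB15 was not called when roots were fitted alone (adjusted p = 0.0696, edgeR).

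Among the 97 that fell in roots only, 4 of the 6 loci named by the rule, which asks for at least 5 CPM in the higher group of both organs, act in glucosinolate synthesis or in sulfate activation for it. CYP79B2 (AT4G39950), which converts tryptophan to indole-3-acetaldoxime, had 31.0, 32.3 and 23.9 CPM in root -S and 149, 155 and 130 CPM in root +S, against 43.9, 38.2 and 32.2 CPM in shoot -S and 53.6, 23.7 and 39.5 CPM in shoot +S libraries. The root groups were far apart and the shoot groups overlapped. It fell by 2.31 ± 0.26 on the log2 scale in roots (adjusted p = 0.000574, edgeR), and the shoot change was -0.03 ± 0.25 (adjusted p = 0.941). CYP83B1 (AT4G31500), which oxidizes the aldoxime further, had 140, 138 and 120 CPM in root -S and 291, 315 and 324 CPM in root +S, against 567, 482 and 521 CPM in shoot -S and 544, 334 and 461 CPM in shoot +S libraries. APK2 (AT4G39940), an adenosine phosphosulfate kinase that feeds sulfation of glucosinolates, had 32.4, 30.1 and 26.3 CPM in root -S and 82.4, 80.4 and 81.8 CPM in root +S, against 98.1, 68 and 85.3 CPM in shoot -S and 56.6, 60.2 and 82.7 CPM in shoot +S libraries. SOT17 (AT1G18590), a desulfoglucosinolate sulfotransferase, had 14.7, 13.5 and 12.3 CPM in root -S and 36.5, 39.2 and 42.5 CPM in root +S, against 28.8, 20.7 and 28.7 CPM in shoot -S and 26, 27.9 and 30.9 CPM in shoot +S libraries. The other 2 were the uncharacterized AT2G22122 (organ difference -1.46 ± 0.20) and AT1G80440 (-1.39 ± 0.18), a kelch-repeat F-box protein. Root groups that do not overlap and a small shoot change were conditions of the rule. The lack of a call in shoots does not show that shoots did not change: the 95% interval of the shoot change lay within 0.5 of 0 on the log2 scale for 71 of the 97 and for 26 of the 37.

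With TMM scaling the 2339 loci called in shoots only rose about as often as they fell, 1226 against 1113. This split moved with the scaling, as given above. Of the 1226, the 95% interval of the root change lay within 0.5 of 0 for 979, and of the 1113 for 930. NIT2 (AT3G44300), a nitrilase, had 120, 109 and 109 CPM in root -S and 91.0, 70.7 and 77.6 CPM in root +S, against 843, 641 and 989 CPM in shoot -S and 95.2, 17 and 19.2 CPM in shoot +S libraries. The first shoot +S library was several times above the other two, and the call of the organ difference of -3.72 ± 0.83 was lost without shoot -S replicate 3 (-3.57, adjusted p = 0.0533 by edgeR) and without any 1 of the 3 root -S libraries. PGDH2 (AT1G17745), a plastid phosphoglycerate dehydrogenase at the entry of serine synthesis, had 172, 146 and 165 CPM in root -S and 129, 106 and 106 CPM in root +S, against 212, 203 and 356 CPM in shoot -S and 44, 20.5 and 29.9 CPM in shoot +S libraries. SRG1 (AT1G17020), a 2-oxoglutarate-dependent oxygenase related to senescence, had 12.6, 14.2 and 10.6 CPM in root -S and 8.89, 10.5 and 9.56 CPM in root +S, against 51.2, 48.9 and 79.2 CPM in shoot -S and 9.99, 6.38 and 8.87 CPM in shoot +S libraries. For these 3 genes the root libraries also lay higher under -S without overlap, by 0.50 ± 0.57, 0.50 ± 0.27 and 0.37 ± 0.21 on the log2 scale, short of a call. The SEs of these root changes also carry the spread of the shoot libraries, which were in the same fit. In fits of each organ alone, PGDH2, NIT2 and WRKY61 (AT1G18860), a WRKY transcription factor, were called up in roots as well. GOX3 (AT4G18360), a glycolate oxidase family protein, and FMO GS-OX4 (AT1G62570), a glucosinolate S-oxygenase, had organ differences of -2.39 ± 0.37 and -2.32 ± 0.33.

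Of those that fell in shoots only, MIOX2 (AT2G19800), a myo-inositol oxygenase, had 52.5, 59.9 and 57.5 CPM in root -S and 71.8, 56.3 and 67.4 CPM in root +S, against 14.7, 10.2 and 7.33 CPM in shoot -S and 124, 47.0 and 112 CPM in shoot +S libraries. FSD1 (AT4G25100), an iron superoxide dismutase, had 115, 122 and 129 CPM in root -S and 128, 152 and 127 CPM in root +S, against 45.4, 36.3 and 28.2 CPM in shoot -S and 150, 156 and 336 CPM in shoot +S libraries. In both genes root groups overlapped and shoots fell, although the shoot +S libraries spread widely. With the replicate block within organ the organ difference of FSD1 was 2.30 and not called (adjusted p = 0.0597, edgeR). GDPD2 (AT5G41080), a glycerophosphodiester phosphodiesterase, had 89.7, 74.5 and 93.5 CPM in root -S and 122, 79.1 and 116 CPM in root +S, against 1.69, 2.48 and 3.40 CPM in shoot -S and 14.8, 8.83 and 18.2 CPM in shoot +S libraries. AT3G10040, the hypoxia-related repressor HRA1, and CDC6 (AT2G29680), a DNA replication licensing factor, had organ differences of 1.96 ± 0.43 and 1.95 ± 0.28. AT4G20362 (2.10 ± 0.36) is annotated as an antisense transcript overlapping AT4G20360, and since the strand setting of the counting is not given, their reads cannot be told apart.

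**Figure D3:**
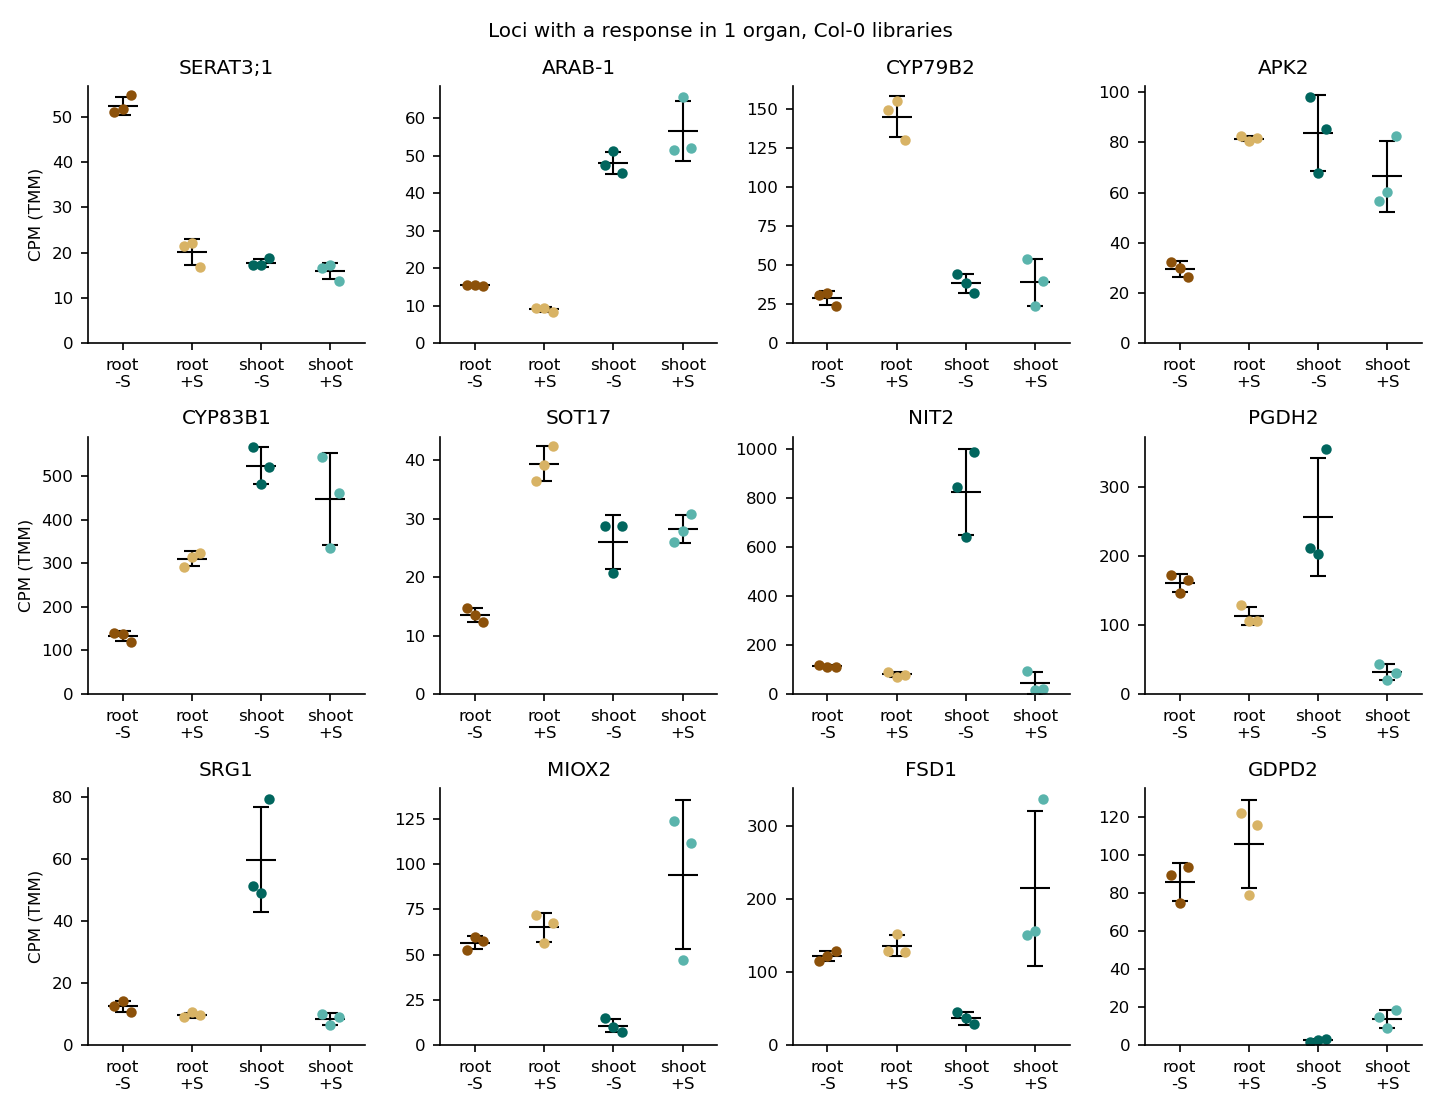
TMM-scaled CPM (y axes, from 0) of 12 loci with a response called in 1 organ, in root -S, root +S, shoot -S and shoot +S libraries of Col-0; points are libraries, bars the mean and SD (n = 3). SERAT3;1 and ARAB-1 rose in roots, CYP79B2, APK2, CYP83B1 and SOT17 fell in roots, NIT2, PGDH2 and SRG1 rose in shoots, and MIOX2, FSD1 and GDPD2 fell in shoots.

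The core sulfate starvation genes changed in the same direction in both organs and more in shoots. All 7 members of the OAS cluster, genes known to follow the cysteine precursor O-acetylserine, rose in roots and in shoots, and all 7 had a negative organ difference; the median log2 change was 3.27 in roots and 5.30 in shoots, against 0.01 and 0 over all loci. SDI1 (AT5G48850), a repressor of glucosinolate synthesis, had 804, 1023 and 1044 CPM in root -S and 12.1, 8.44 and 9.24 CPM in root +S, against 984, 886 and 1334 CPM in shoot -S and 0.950, 1.46 and 1.33 CPM in shoot +S libraries. The -S levels were similar in the 2 organs, and the +S level was lower in shoots. LSU1 (AT3G49580), of unknown biochemical role, had 269, 236 and 318 CPM in root -S and 12.2, 10.5 and 9.39 CPM in root +S, against 526, 469 and 695 CPM in shoot -S and 2.85, 1.06 and 1.24 CPM in shoot +S libraries, with the caution that reads may be shared with LSU2. Its shoot libraries lay above its root libraries under -S and below them under +S. The organ differences were -3.64 ± 0.38 for LSU1, -3.16 ± 0.30 for SDI1, -2.11 ± 0.20 for the reductase gene APR3, -2.03 ± 0.23 for LSU2, -1.81 ± 0.16 for the hydroxymethyltransferase gene SHM7, -1.57 ± 0.11 for SDI2 and -1.03 ± 0.30 for GGCT2;1, a gamma-glutamyl cyclotransferase of glutathione breakdown. The call of GGCT2;1 (adjusted p = 0.0456, edgeR) was lost with RLE factors (adjusted p = 0.05314) and when any 1 of 8 libraries was left out.

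Of 12 sulfate transporters, 7 rose and 1 fell in roots and 6 rose and 1 fell in shoots, and the organ difference was positive for 1 and negative for 4. Of all loci, 1.73% rose and 2.85% fell in roots, and 17% rose and 17% fell in shoots. The difference was positive for 5.97% and negative for 7.16% of all loci. The transporter with a positive difference was SULTR2;1. SULTR1;2 (AT1G78000), a main root uptake transporter, had 771, 853 and 728 CPM in root -S and 247, 204 and 166 CPM in root +S, against 202, 168 and 220 CPM in shoot -S and 18.4, 20.6 and 17 CPM in shoot +S libraries, an organ difference of -1.46 ± 0.20. The other negative ones were SULTR2;2 (-1.26 ± 0.16) and the vacuolar exporters SULTR4;1 (-1.79 ± 0.14) and SULTR4;2 (-1.85 ± 0.17). SULTR1;1 (AT4G08620), the second uptake transporter, rose by 4.77 ± 0.21 in roots and 4.65 ± 0.26 in shoots, with an organ difference of 0.12 ± 0.37 (adjusted p = 0.872, edgeR). By limma on log2(TPM + 1), a scale that understates changes of low loci, the same difference was 1.66 and called (adjusted p = 0.000771). SULTR3;4 rose by 0.80 ± 0.11 in roots and by 0.70 ± 0.13 in shoots. SULTR3;5, a transporter known to act with SULTR2;1 in root-to-shoot transport, fell in roots by 1.27 ± 0.21 on the log2 scale, the value being -0.90 ± 0.33 in shoots (adjusted p = 0.0541, edgeR). SULTR3;1, SULTR3;2 and SULTR3;3 were not called in any contrast, nor was SULTR1;3, at 1.23 CPM or less in every library.

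Of 20 sulfate assimilation genes, 7 rose and 3 fell in roots and 11 rose and 3 fell in shoots, and the organ difference was positive for 1, SERAT3;1, and negative for 10. The shares of all loci are those given with the sulfate transporters. Among the APS reductases, the committed step of sulfate reduction, APR1 (AT4G04610) had 259, 268 and 286 CPM in root -S and 155, 150 and 147 CPM in root +S, against 378, 334 and 458 CPM in shoot -S and 30.8, 33.7 and 30.9 CPM in shoot +S libraries. Its organ difference was -2.77 ± 0.14 and that of APR2 was -0.82 ± 0.12. Sulfite reductase SIR (-1.11 ± 0.13), the kinase APK1 (-1.41 ± 0.19), the serine acetyltransferase SERAT2;2 (-1.07 ± 0.13) and the O-acetylserine thiol-lyases OASB (-0.78 ± 0.11) and OASC (-0.54 ± 0.11) rose in shoots only. SERAT2;1 rose in both organs (-0.64 ± 0.13). ATPS1, ATPS2, ATPS3 and ATPS4, the ATP sulfurylases that activate sulfate, had no called organ difference: ATPS4 fell by 2.81 ± 0.10 in roots and by 2.63 ± 0.10 in shoots, ATPS2 fell in both, ATPS3 rose in both, and ATPS1 was called in neither organ (organ difference -0.40 ± 0.13, adjusted p = 0.0714, edgeR). The organ difference of ATPS1 was called with total-count scaling (-0.51, adjusted p = 0.0179, edgeR), by limma (-0.52, adjusted p = 0.0195), with the replicate block (-0.39, adjusted p = 0.0213, edgeR) and without shoot -S replicate 2 (-0.46, adjusted p = 0.0474, edgeR). SERAT3;2 rose by 5.03 ± 0.20 in roots and by 5.35 ± 0.22 in shoots. APK4 fell in shoots by 0.55 ± 0.13. APK3, SERAT1;1 and OASA1, a cytosolic O-acetylserine thiol-lyase, were not called in any contrast.

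The glucosinolate branches differed in their organ pattern. The shares of all loci are again those given with the sulfate transporters. Of 22 aliphatic genes, 17 fell and 0 rose in roots and 19 fell and 1 rose in shoots, while the organ difference was called for 4 (1 positive, 3 negative): BAT5, a plastid 2-keto acid transporter, positive, and SOT17, SUR1 and UGT74C1, negative. The median change was -1.68 in roots and -2.39 in shoots. Of 17 indolic genes, 7 fell and 0 rose in roots and 7 rose and 1 fell in shoots, and 10 had a negative organ difference and 0 a positive one; the median difference was -0.86, against -0.01 over all loci. MYB34, a regulator of the branch, CYP79B2 and CYP83B1 fell in roots only, CYP79B3 fell in both organs and more in roots (-3.37 and -1.22), GSTF9, UGT74B1 and IGMT1 were opposite, and GSTF10, the gamma-glutamyl peptidase GGP1 and the sulfotransferase SOT16 rose in shoots only. GGP1 (AT4G30530) had 205, 219 and 198 CPM in root -S and 160, 159 and 170 CPM in root +S, against 659, 561 and 857 CPM in shoot -S and 131, 123 and 165 CPM in shoot +S libraries. It was called up in roots as well when roots were fitted alone (adjusted p = 0.0162, edgeR). CYP79B2 with CYP79B3, and GSTF9 with GSTF10, are close paralogs between which reads may be split.

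Of 11 tryptophan synthesis genes, a list added after values had been seen, 2 fell in roots (ASA1 and TSB1), 7 rose in shoots, and 7 had a negative organ difference. The same held for 2.85%, 17% and 7.16% of all loci. ASB1, the beta subunit of anthranilate synthase, PAT1, IGPS, TRPA1 and TSB2 rose in shoots only, by 1.53, 1.23, 1.53, 1.3 and 1.41 on the log2 scale, with root values from -0.32 to -0.04. ASA2 and the 3 PAI genes were not called. Of 6 genes of plastid serine synthesis, added in the same way, PGDH1, PGDH2 and PSAT1 rose in shoots only and PGDH3 fell in shoots. Of 12 genes of glucosinolate breakdown and transport, 4 rose and 2 fell in roots and 5 rose and 2 fell in shoots. The organ difference was positive for 2 and negative for 4, and the median root change was 1.35. The shares of all loci are those given with the sulfate transporters. The 2 that fell in roots were NSP1, a nitrile specifier protein, and the transporter GTR2, both roots-only loci (root log2 changes of -0.46 ± 0.10 and -0.58 ± 0.10). GTR1, a paralog of GTR2, rose in both organs and more in roots (organ difference 0.68). The organ difference of NSP1 was not called with all 48 libraries in the fit (adjusted p = 0.0575, edgeR).

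**Figure D4:**
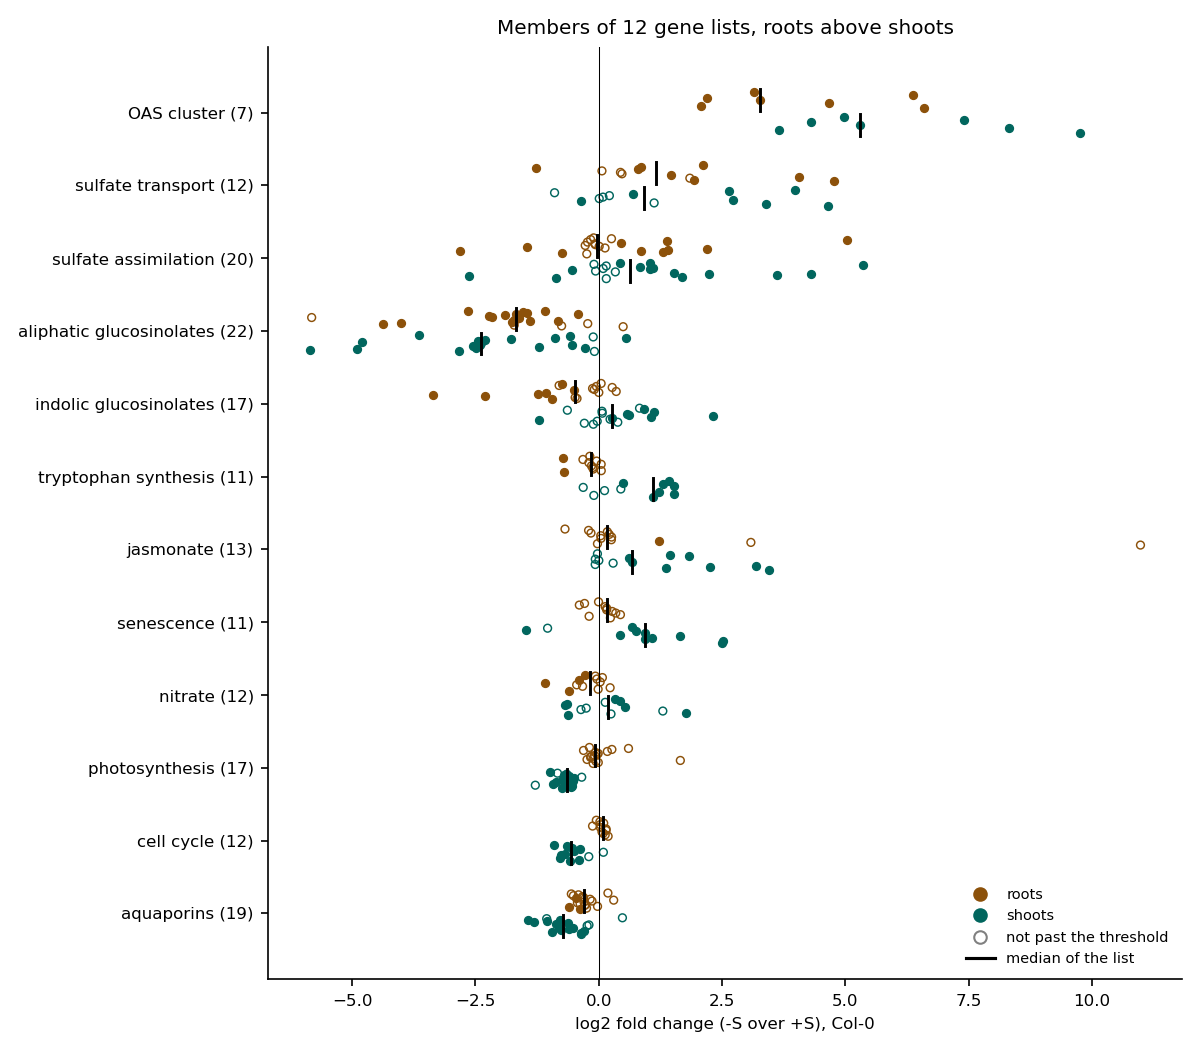
Log2 fold change (-S over +S, x axis) of the tested members of 12 gene lists in Col-0, roots (brown) above shoots (green); filled points passed the threshold and black bars are medians. The indolic and tryptophan lists lie left of 0 or near it in roots and mostly right of 0 in shoots, whereas the OAS cluster lies right of 0 and the aliphatic list mostly left of 0 in both organs.

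Most photosynthesis and cell cycle genes fell in shoots, where 17% of all loci fell. The organ difference was positive for 5.97% of all loci. In roots 4.57% of all loci were called, a share at which lists of this size may hold no called member. Of 17 photosynthesis genes, 0 were called in roots, 13 fell in shoots and 6 had a positive organ difference, the median log2 change being -0.07 in roots and -0.65 in shoots. RCA (AT2G39730), rubisco activase, had 61.2, 68.9 and 50.7 CPM in root -S and 68.5, 76 and 61.8 CPM in root +S, against 3682, 4178 and 3127 CPM in shoot -S and 6486, 7753 and 7467 CPM in shoot +S libraries. Root levels were far below shoot levels. PSAE1, a photosystem I subunit, and the antenna genes LHCA1 and LHCB6 had organ differences of 0.78, 0.64 and 0.61, calls that were lost by limma and when any 1 of 7 libraries was left out. With all 48 libraries in the fit, RCA (0.80, adjusted p = 0.0748), PSAE1 (adjusted p = 0.268), LHCA1 (adjusted p = 0.229) and LHCB6 (adjusted p = 0.153) were not called by edgeR. The sum of green tissue markers given above is made of these same genes. Of 12 cell cycle genes, 0 were called in roots, 10 fell in shoots and 9 had a positive organ difference. KNOLLE (AT1G08560), the cytokinesis syntaxin, had 42.7, 43.5 and 47.9 CPM in root -S and 45.1, 44 and 49.7 CPM in root +S, against 14.2, 15.1 and 14.2 CPM in shoot -S and 29.1, 24.9 and 27 CPM in shoot +S libraries. The mitotic kinases CDKB2;1 and CDKB2;2 and the cyclin CYCB1;2 had organ differences of 0.54, 0.88 and 0.91. Roots held more of these transcripts than shoots on both plates.

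Most senescence and jasmonate genes rose in shoots, where 17% of all loci rose. Of all loci, 4.57% were called in roots and 7.16% had a negative organ difference. Of 11 senescence genes tested, 0 were called in roots and 9 rose and 1 fell in shoots, with 6 negative organ differences and 1 positive. NYE1 (AT4G22920), a chlorophyll-degrading enzyme also known as SGR1, had 19.4, 22.6 and 18.2 CPM in root -S and 17.5, 18.4 and 13.7 CPM in root +S, against 91.0, 87.1 and 103 CPM in shoot -S and 29.1, 31.4 and 29.3 CPM in shoot +S libraries. PPH and PAO, the next chlorophyll breakdown enzymes, and WRKY6 had organ differences of -0.77, -0.62 and -0.67. Of 13 jasmonate genes, 1 rose in roots and 8 rose in shoots, and 5 had a negative organ difference. AOS (AT5G42650), allene oxide synthase, had 28.5, 24.6 and 25.2 CPM in root -S and 28.9, 23.8 and 26.9 CPM in root +S, against 327, 317 and 396 CPM in shoot -S and 97.3, 124 and 186 CPM in shoot +S libraries. The storage proteins VSP1 and VSP2 had organ differences of -1.66 each, with reads that may be shared, and the transcription factor MYC2 had -0.77, a call lost when any 1 of 6 libraries was left out.

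Among nutrient and water transport lists, 3 of 19 aquaporins fell in roots and 14 fell in shoots, with 4 positive organ differences. Of all loci, 2.85% fell in roots, 17% fell in shoots and 5.97% had a positive difference. The 4 aquaporins were TIP1;1 (1.00), TIP2;1 (0.92), TIP1;2 (0.71) and PIP2;7 (0.70). The call of TIP2;1 was lost when any 1 of 8 libraries was left out, and that of TIP1;2 without root -S replicate 1. Of 12 nitrate genes, 4 fell in roots, and 4 rose and 3 fell in shoots, against 2.85%, 17% and 17% of all loci. NIA1 (AT1G77760), a nitrate reductase, had 359, 367 and 288 CPM in root -S and 770, 748 and 638 CPM in root +S, against 77.5, 68.6 and 65.1 CPM in shoot -S and 82.4, 82.4 and 87.2 CPM in shoot +S libraries. It fell by 1.09 ± 0.11 in roots, and its shoot value of -0.25 ± 0.11 was not called (adjusted p = 0.083, edgeR), although it passed when shoots were fitted alone. LBD37, a paralog of LBD38, rose in shoots only by 0.42 on the log2 scale, and GLN2, the plastid glutamine synthetase, fell in shoots only by 0.65. Of 13 iron genes tested, FRO2 (AT1G01580), the root ferric chelate reductase, was the only one with a called organ difference, -2.15 ± 0.34. Of all loci 13.1% had a called difference, so 1 of 13 says nothing about the iron list. FRO2 had 1.15, 1.54 and 1.11 CPM in root -S and 3.15, 4.39 and 4.39 CPM in root +S libraries, and from 1.01 to 1.96 CPM in shoots. Of 8 phosphate genes tested, PAP17 and PHT1;1 rose in shoots only, PHO1;H1 fell in roots only, and 4 organ differences were negative, against 7.16% of all loci. When each organ was fitted alone, PHT1;1 was instead called down in roots (adjusted p = 0.0332, edgeR) and not called in shoots (adjusted p = 0.0536, edgeR).

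The remaining lists held 0 to 2 called organ differences each, not far from the 13.1% called over all loci, so their counts say nothing about these lists. Of 11 clock genes, CCA1, a morning-phased repressor, rose in roots only and ELF4 rose in shoots only, with organ differences of 0.72 ± 0.18 and -0.80 ± 0.20, and the call of ELF4 was lost without shoot -S replicate 3. The organ difference of CCA1 was not called with all 48 libraries in the fit (adjusted p = 0.0762, edgeR), and the shoot response of ELF4 was not called when shoots were fitted alone (adjusted p = 0.0514, edgeR). Of 10 chloride and anion transport genes, the anion channels SLAH3 fell and SLAH2 rose in shoots only, with organ differences of 0.91 ± 0.15 and -0.98 ± 0.28. The auxin conjugase GH3.5 (-0.72 ± 0.12), EIL3 itself (-0.44 ± 0.11) and EDS5, a salicylate pathway transporter (-0.70 ± 0.19), were the only members of the auxin, ethylene and salicylate lists with a called difference, and all 3 rose in shoots only. The calls of SLAH2, EDS5 and PHO1;H1 were lost when any 1 of 9, 7 and 5 libraries was left out, and that of SLAH2 also with the replicate block (adjusted p = 0.0859, edgeR). Of 11 flavonoid genes tested, 4 rose in shoots and 2 organ differences were negative. Of 8 root markers, 1 fell in roots, 1 rose in shoots and 0 had a called organ difference.

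In 28 loci the change had the same direction and was larger in roots. Beside CYP79B3, GTR1 and UGT74C1 they included FMO GS-OX3, a glucosinolate oxygenase (-3.01 in roots and -1.69 in shoots), UMAMIT29, an amino acid exporter (-2.60 and -0.89), YSL1, a metal-nicotianamine transporter (1.86 and 0.92), and AT2G32487 (6.58 and 3.63), all chosen after their values were seen.

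The same contrast was then taken in the 36 libraries of 3 mutant-labelled lines, which did not enter the fit that set the classes, although the classes were chosen with earlier results of the series known: the T-DNA lines eil1 (AT2G27050) and eil3 (AT1G73730) and their double mutant eil3 eil1, with 3 libraries per organ and plate. The transcripts of the mutated genes check these labels only in part. EIL1 ran from 13.3 to 22.0 CPM in roots and 28.1 to 46.6 CPM in shoots of eil3 eil1-labelled plants, and from 36.3 to 52.3 and 78.5 to 101 CPM in eil1-labelled plants, against 49.3 to 60.2 and 93.0 to 110 CPM in Col-0. EIL3 ran from 20.1 to 24.1 CPM in roots and 28.5 to 36.6 CPM in shoots of eil3 eil1-labelled plants and from 11.8 to 17.5 and 13.2 to 23.0 CPM in eil3-labelled plants, against 21.3 to 24.5 and 15.3 to 23.7 CPM in Col-0. A T-DNA insertion can leave transcript on either side of it, so these levels do not settle the labels.

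The opposite loci were then counted by the direction of their organ difference in each line. Of the 45 loci that fell in roots and rose in shoots of Col-0, 15 had a called negative organ difference in eil3 eil1-labelled, 8 in eil3-labelled and 28 in eil1-labelled plants, which is 33.3%, 17.8% and 62.2%, against 24.9%, 5.99% and 6.67% of all loci tested in each line. Of the 22 of the reverse class, 15, 4 and 9 had a called positive difference, which is 68.2%, 18.2% and 40.9%, against 22.1%, 4.71% and 4.42% of all loci. In eil3 eil1-labelled plants 10 of the 45 (22.2%, against 22.1% of all loci) were called in the other direction, 23 had a positive and 22 a negative value, and the median was 0.00, so that the 45 showed no common direction there. The count for the eil3-labelled line was 12 of 67, and it was 30 with total-count scaling and 32 by limma. Without 1 library it ran from 7 (without shoot -S replicate 2) to 14. Whether the lines differ in these counts was not tested.

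Single genes gave different values in the lines. The organ difference of SULTR2;1 was 1.29 ± 0.15, 1.45 ± 0.22 and 3.81 ± 0.28 in eil3 eil1-, eil3- and eil1-labelled plants, against 4.41 ± 0.17 in Col-0, and that of ASA1 was -0.40 ± 0.11, -1.24 ± 0.20 and -1.74 ± 0.27, against -1.80 ± 0.17. Both were called in all 3 lines, as were AT1G49470, AT1G21140, ADT1 and PMAT2. FMO GS-OX2, UGT74B1 and SUC2 were among the 10 opposite loci called against the Col-0 direction in eil3 eil1-labelled plants. IGMT1 was called in eil1-labelled plants alone (-1.44 ± 0.31; 0.35 ± 0.14 in eil3 eil1- and -0.51 ± 0.20 in eil3-labelled plants), and so was SERAT3;1 among the roots-only genes (1.05 ± 0.12; 0.01 ± 0.10 and 0.30 ± 0.13). XTR6, second only to SULTR2;1 among the named root-up loci of Col-0, was called in none of the 3, with values of -0.47 ± 0.26, -1.01 ± 0.39 and -0.50 ± 0.33. PGDH2 and SRG1, up in shoots only in Col-0, had -2.60 ± 0.23, -2.61 ± 0.15 and -2.43 ± 0.29, and -2.67 ± 0.16, -2.20 ± 0.32 and -1.91 ± 0.24, each called in all 3 lines. Differences between lines were not tested.

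Of the 1226 loci that rose in shoots only, 743, 465 and 620 had a called negative difference in eil3 eil1-, eil3- and eil1-labelled plants, which is 60.6%, 37.9% and 50.6%, and of the 1113 that fell in shoots only, 773, 331 and 454 had a called positive one, which is 69.5%, 29.7% and 40.8%. The shares of all loci are those given above. Of the 97 that fell in roots only, 21, 7 and 22 were called in the Col-0 direction, which is 21.6%, 7.22% and 22.7%, against 24.9%, 5.99% and 6.67% of all loci. In eil3 eil1-labelled plants 29 of the 97 (29.9%) were called in the other direction, against 22.1% of all loci. Of the 37 that rose in roots only, 18, 2 and 9 were called in the Col-0 direction, which is 48.6%, 5.41% and 24.3%, against 22.1%, 4.71% and 4.42% of all loci. The roots-only shares in eil3-labelled plants, and that of the 97 in eil3 eil1-labelled plants, lay near the share of all loci and say nothing about these loci.

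**Figure D5:**
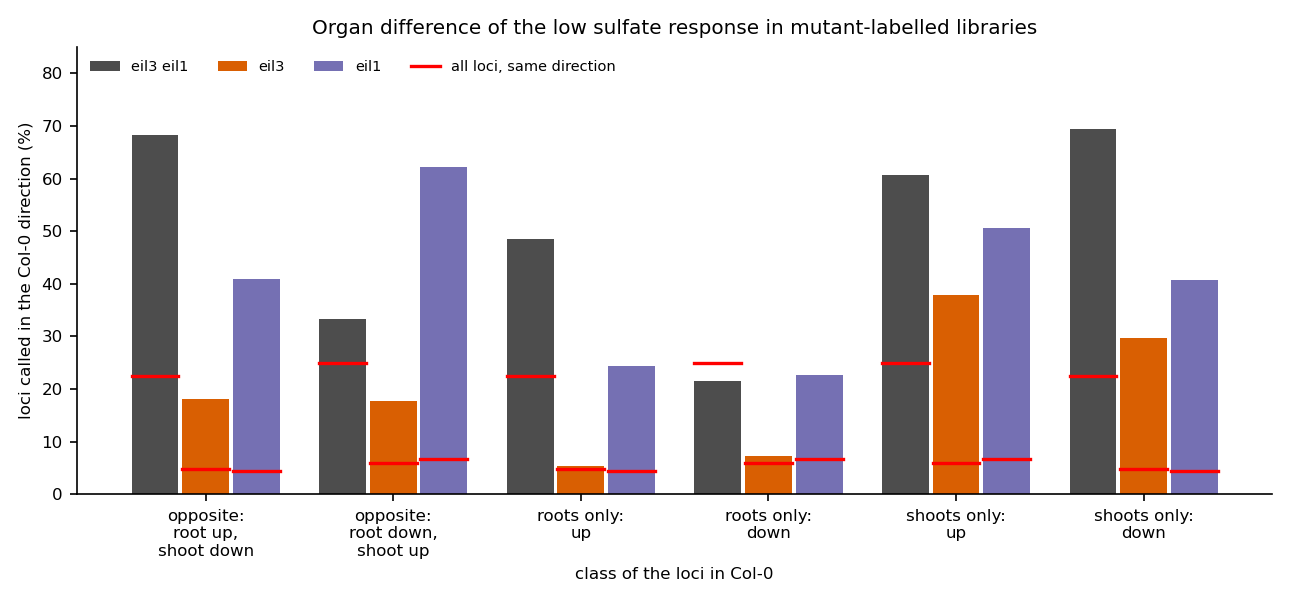
Share of the loci of each Col-0 class (x axis) whose organ difference was called in the same direction in eil3 eil1-, eil3- and eil1-labelled libraries (bars, percent, from 0); red lines give the share of all Col-0-tested loci called in that direction. The share of loci down in roots and up in shoots is 62.2% in eil1-labelled plants and 33.3% in eil3 eil1-labelled plants, where the line is at 25%.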

How the data were processed

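RNA-seq libraries (TruSeq Stranded mRNA, per the labels) were made from 18-day-old plants. The submitters' processing notes name Trimmomatic 0.36, FastQC, kallisto 0.43.1 and TAIR10; the strand setting is not given in the sources used here. The deposited table holds the authors' estimated counts per target, 7.79% of them not whole, which were rounded; 97.7% of its 33602 targets matched a RefSeq locus. Total estimated counts were 27128201 to 38269946 per Col-0 library. Intervals and SEs rest on a spread estimated over all groups of a fit, with 3 libraries a group. The SE of a root change therefore also carries the spread of the shoot libraries, and the reverse.

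The 12 Col-0 libraries were fitted in 1 model with 4 group coefficients by edgeR 4.0.16 in R 4.3.3 (robust quasi-likelihood test, TMM, filterByExpr, Benjamini-Hochberg adjustment over 22301 loci, threshold 0.05). SE is the log2 change over the square root of its F. CPM are TMM-scaled, the marker sums included, except for those of the mutated genes, which use library totals. Each mutant-labelled line was fitted on its own 12 libraries. In data simulated from the Col-0 organ means over 22212 loci, 16.4%, 83.6% and 98.5% of loci changed by 1.5-, 2- and 4-fold were recovered, with 4 false calls. The simulation gave all loci the same spread and no sulfate response other than the set changes. These changes were placed only in loci above a count minimum. Its rates therefore need not hold for the real libraries.

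Members, classes and gene lists were chosen with earlier results of these data known; the tryptophan and serine lists were added after values had been seen. Named loci were the 8 opposite loci per direction with the largest organ difference, and the 6 per direction for roots only and shoots only. Each had at least 5 CPM in the higher group of both organs and no overlap of libraries in the responding organs, and 1-organ loci a change under 0.5 (log2) in the other organ. All members of the OAS cluster, sulfate transport and assimilation lists were named, and up to 4 opposite or 1-organ members of each other list. Others are said to be chosen after their values were seen.

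Alternatives were RLE factors, total-count scaling, no count filter, DESeq2 1.42.0, limma 3.58.1 on log2(TPM + 1), nuclear loci only, all 48 libraries, a replicate block within each organ, leaving out each library and other class rules. TPM were computed from the deposited estimated counts and effective lengths. Fits of each organ alone were added after seeing the data. Same-numbered -S and +S libraries correlated in their deviations with r of 0.196, 0.257 and 0.147 in roots and 0.16, 0.227 and 0.0952 in shoots. For unlike numbers r ran from -0.203 to 0.00196 in roots and from -0.191 to 0.00794 in shoots. Whether the numbers stand for a pairing was not tested in either organ, and the table numbers of the shoot libraries are not those of their titles. The fit that set the classes did not use the numbers, and the replicate block did. Tables were joined with pandas 2.3.3 and numpy 2.4.6 under Python 3.11.15, and figures drawn with matplotlib 3.10.9.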

Additional observations from a re-analysis of the deposited data

Results flagged for a closer look

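The low sulfate response differed between the organs by the test of the difference itself for 2928 loci, among them 67 with opposite directions, 134 called in roots only and 2339 called in shoots only. By the same test (edgeR, adjusted p under 0.05 for each), the organ difference on the log2 scale was 4.41 for SULTR2;1, 1.79 for XTR6, 1.73 for DREB26, 1.66 for EXLA1, 1.34 for CaS, 1.08 for FLA18, 1.02 for AMP1, 1.02 for AT4G35320 and 0.82 for AT3G16370, all higher in -S than +S roots and lower in -S than +S shoots. It was -1.88 for FMO GS-OX2, -1.80 for ASA1, -1.67 for IGMT1, -1.64 for AT4G21910, -1.62 for AT1G49470, -1.57 for AT3G23570, -1.41 for KT1, -1.35 for GSTF9, -1.12 for UGT74B1, -0.98 for SUR1 and -0.61 for LBD38, all with the reverse directions. Of the 116 named loci, 100 passed the test of the difference, against 13.1% of all loci. Most of the naming rule drew on classes that require this pass, so the count is not evidence.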

How the results depend on the processing

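The count of loci with opposite directions, 67, was the least stable: it was 119 by DESeq2, 116 with the replicate block within organ, 2 when a log2 change of at least 1 was asked in each organ, 78 with each organ fitted alone (54 of them shared) and 38 to 106 without 1 library. The root response, 1020 loci, was 1535 by DESeq2 and 622 to 1304 without 1 library. Roots-only loci, 134, ran from 84 to 161 without 1 library, and shoots-only loci, 2339, from 1566 to 2897. The organ difference ran from 2064 to 3674 and the shoot response from 5775 to 7708. The replicate block gave 3572 loci for the organ difference, 1385 for roots, 8219 for shoots, 179 for roots only and 2725 for shoots only. The splits of higher against lower calls also moved: limma gave 835 positive and 2255 negative organ differences, 6913 higher and 1606 lower in shoots, 1734 and 514 in shoots only and 684 and 423 in roots, and DESeq2 2049 positive and 1621 negative organ differences and 76 and 118 in roots only. In eil3-labelled plants the 12 opposite loci called in the Col-0 direction became 30 with total-count scaling, 32 by limma and 7 to 14 without 1 library; the counts were 26 to 30 in eil3 eil1- and 25 to 40 in eil1-labelled plants. The cause was not tested.

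For the named loci, 907 values over the settings that keep all libraries stayed on the same side of the threshold, 17 lost and 4 gained a call. No value called in the fit that set the classes or in the setting changed sign. Sign changes of values called in neither were not counted. With the replicate block sks9, FSD1 and SLAH2 lost and ATPS1 gained the call. In the simulation 16.4% of 1.5-fold changes were recovered, a rate that need not hold for the real libraries. A missing call in an organ does not show that it did not respond.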
